A study of Brassica oleracea var. italica with 48 samples.

Results

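The libraries described here are the 12 made from leaves of potassium-starved broccoli (Brassica oleracea var. italica), out of 48 libraries of roots and leaves in the series. They were chosen by their labels and fall into 3 groups of 4, lettered a to d, collected 1, 3 and 6 days after the plants lost potassium. All plants were wild type. Seeds grew for 6 days on MS plates, and the seedlings then had 7 days of hydroponics at 2 mM K2SO4 with 16 h of light a day. A part of the plants was moved to potassium-free medium, and the 12 leaf libraries of plants labelled control, from the same days, serve as the reference. The deposited table holds 60586 features, of which 59225 have IDs that begin with Bo, and 24000 of these reached 1 TPM (transcripts per 1000000, a level scaled for coding length and library size) in at least 4 of the 12 starved leaf libraries and were tested. The other 35225 did not, and 19044 of them were at 0 in all 12. Each day of starvation is also a day of growth, so that in starved leaves alone the length of starvation and the age of the plant cannot be told apart.

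Potassium is the main inorganic cation of plant cells. In leaves it drives the opening of stomata, keeps cells turgid, activates enzymes and balances charge during photosynthesis and the loading of sugar into the phloem. It moves readily in the phloem, so a plant that runs short can draw it out of its leaves. Plants sense the shortage mainly in the root, where Arabidopsis makes more of the high-affinity transporter HAK5, and jasmonate, ethylene and salicylic acid are among the hormones that respond. The series title names HAK5 and salicylic acid synthesis. None of the deposited feature IDs (0) was found in the table of gene names used here, so these genes and the markers of leaf tissue were not analysed here. Features appear under their deposited IDs, with no role.

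The reads recovered from the TPM values numbered 18350942 to 20104415 per starved leaf library. Library d of starved day 1 stood apart from the others. Its estimated weight was 0.0960 where 1 is the average (limma array weights over the 24 leaf libraries), it had 19659 Bo features at 1 TPM or more against 22167 to 23651 in the other starved leaf libraries, and its 10 most abundant features held 21.5% of its TPM. Features of short coding length stood high in it (Spearman rho of deviation from the leaf mean with coding length, across features, -0.53). Library a of starved day 3 shared this trend (rho -0.50, weight 0.301), as did control libraries b of day 1 (-0.54) and a of day 3 (-0.58). The median standard deviation of log2(TPM + 1) between the libraries of a day was 0.35 on day 1, 0.24 on day 3 and 0.20 on day 6, and it was 0.18 on day 1 without library d and 0.14 on day 3 without library a. Along the first principal component, with 48.1% of the variance, library d of day 1 lay alone at one end. The second, with 26.1%, ordered most libraries by day.

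**Figure D1:**
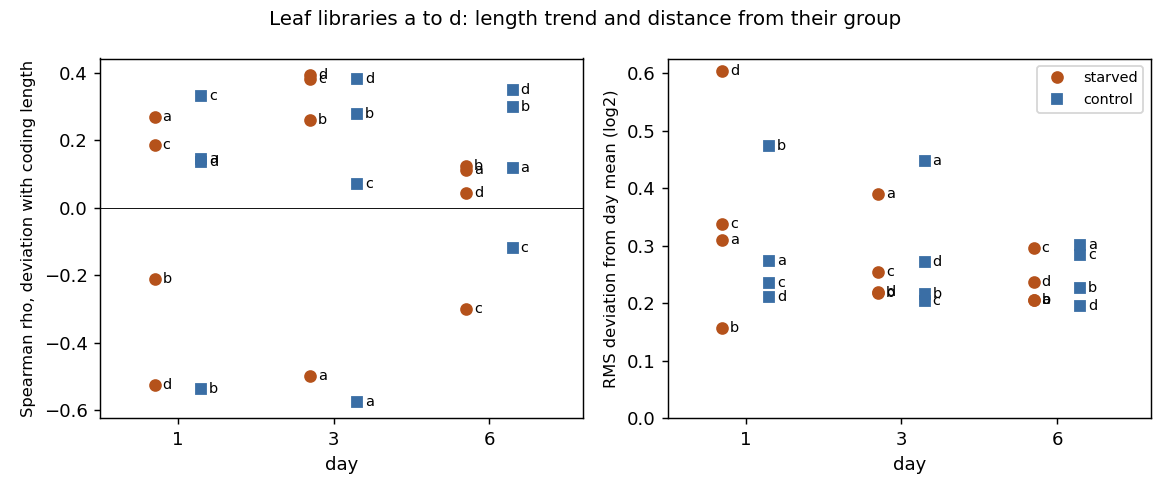
Left, Spearman rho between each leaf library's deviation from the leaf mean and coding length, across features; right, root mean square deviation of each library from the mean of its group, on the log2(TPM + 1) scale. Circles are starved and squares control leaves, letters name the libraries, and starved library d of day 1 has the highest deviation (0.603) and a rho of -0.53.

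Between day 6 and day 1 of starvation 4099 of the 24000 features were called (17.1%), that is, they had a Benjamini-Hochberg adjusted p under 0.05 in limma's test on log2(TPM + 1). Rises (2701, 11.3% of those tested) outnumbered falls (1398, 5.83%), and 1081 rises and 403 falls changed by 1 or more on the log2 scale. Of these, 32 rises and 2 falls changed by 3 or more. The excess of rises was smaller after rescaling and without library d of day 1. The median change of all tested features was 0.13, and after rescaling by medians of ratios, which set it to 0.00, 2806 features rose and 2674 fell. Without library d of day 1 the counts were 2581 rises and 2582 falls, which included 2412 of the rises and 1319 of the falls called with it. The number of calls was 2730 without library b of day 1, 2603 without library a of day 6 and 2705 without library d of day 6. As these are bulk samples, less RNA per cell and fewer cells of a type cannot be told apart. The labels do not say whether replicates were separate plants or cultures, so a p-value here measures no more than the spread among these libraries, and that spread may be technical.

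**Figure D2:**
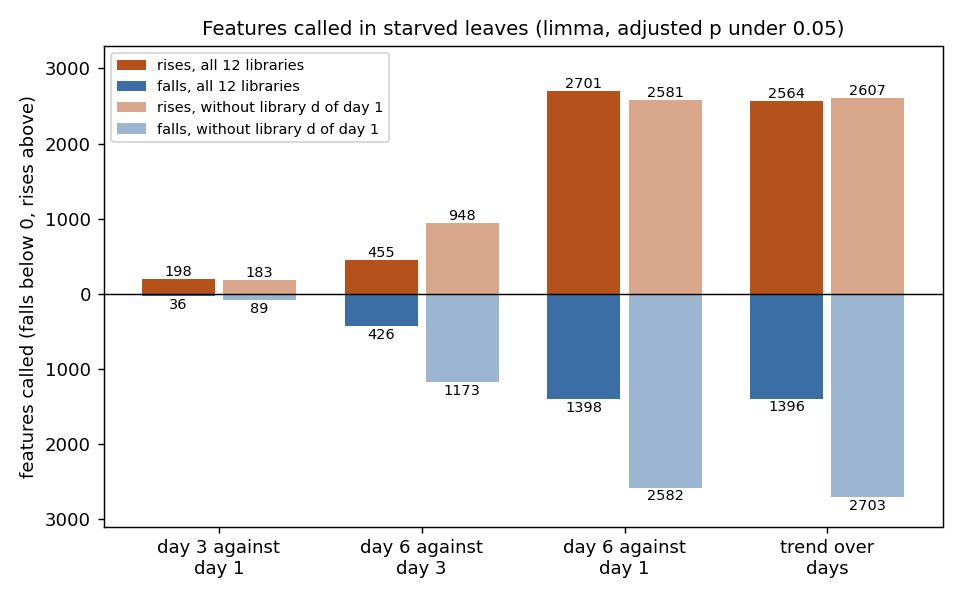
Number of features called (limma, adjusted p under 0.05) in starved leaves in each comparison, rises above 0 and falls below. Dark bars are all 12 libraries and light bars leave out library d of day 1, which moves the day 6 against day 1 counts to 2581 rises and 2582 falls.

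The features named in each comparison had the largest changes among those called whose mean was at least 1 TPM and whose libraries of one day lay all above or all below those of the other. Bo7g087150 had the largest rise between days 6 and 1. It stood at 45.6, 19.8, 23.1 and 29.9 TPM in libraries a to d of day 6, against 0.775, 0.521, 0.728 and 0.350 TPM on day 1 (log2 fold change 4.20, SE 0.48, limma adjusted p = 0.000151). Day 3 lay between, at 4.34 to 34.8 TPM, with libraries a and d low and library c as high as day 6. In control leaves it averaged 0.617 ± 0.314, 2.61 ± 2.66 and 1.67 ± 1.07 TPM on days 1, 3 and 6 (SD, n = 4 each), so starved and control leaves overlapped on day 1 and were separate on day 6. Bo8g112250 reached 65.2, 37.4, 15.1 and 84.4 TPM on day 6, against 2.09, 2.12, 2.86 and 0.718 TPM on day 1 (log2 fold change 3.94, SE 0.46, limma adjusted p = 0.000159). Most of its rise came after day 3, when it was at 3.77 to 11.2 TPM, and 1 control library of day 6 (a, 17.1 TPM) exceeded the lowest starved library of that day. Its change in starved minus that in control leaves was 2.82 (SE 0.68) and was not called (limma adjusted p = 0.0584).

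The largest falls were about as deep in control leaves. Bo2g149980 had 0.718, 1.83, 1.79 and 1.00 TPM on day 6, against 29.4, 30.01, 24.2 and 29.4 TPM on day 1 (log2 fold change -3.67, SE 0.41, limma adjusted p = 0.000122). Its starved leaves averaged 28.3 ± 2.74, 9.40 ± 7.12 and 1.34 ± 0.562 TPM on days 1, 3 and 6, and its control leaves 34.6 ± 15.3, 9.44 ± 5.69 and 2.21 ± 1.61 TPM (SD, n = 4 each). Bo8g108830 was down to 0.207, 1.22, 0.622 and 0.206 TPM on day 6, against 13.5, 17.7, 30.37 and 10.06 TPM on day 1 (log2 fold change -3.53, SE 0.37, limma adjusted p = 0.000108). Its control leaves averaged 0.642 ± 0.456 TPM on day 6 against 22.6 ± 7.79 TPM on day 1, so starved and control leaves overlapped on both days. For these 2 features the change in starved minus that in control leaves was -0.19 (SE 0.66, limma adjusted p = 1) and 0.29 (SE 0.63, limma adjusted p = 1).

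**Figure D3:**
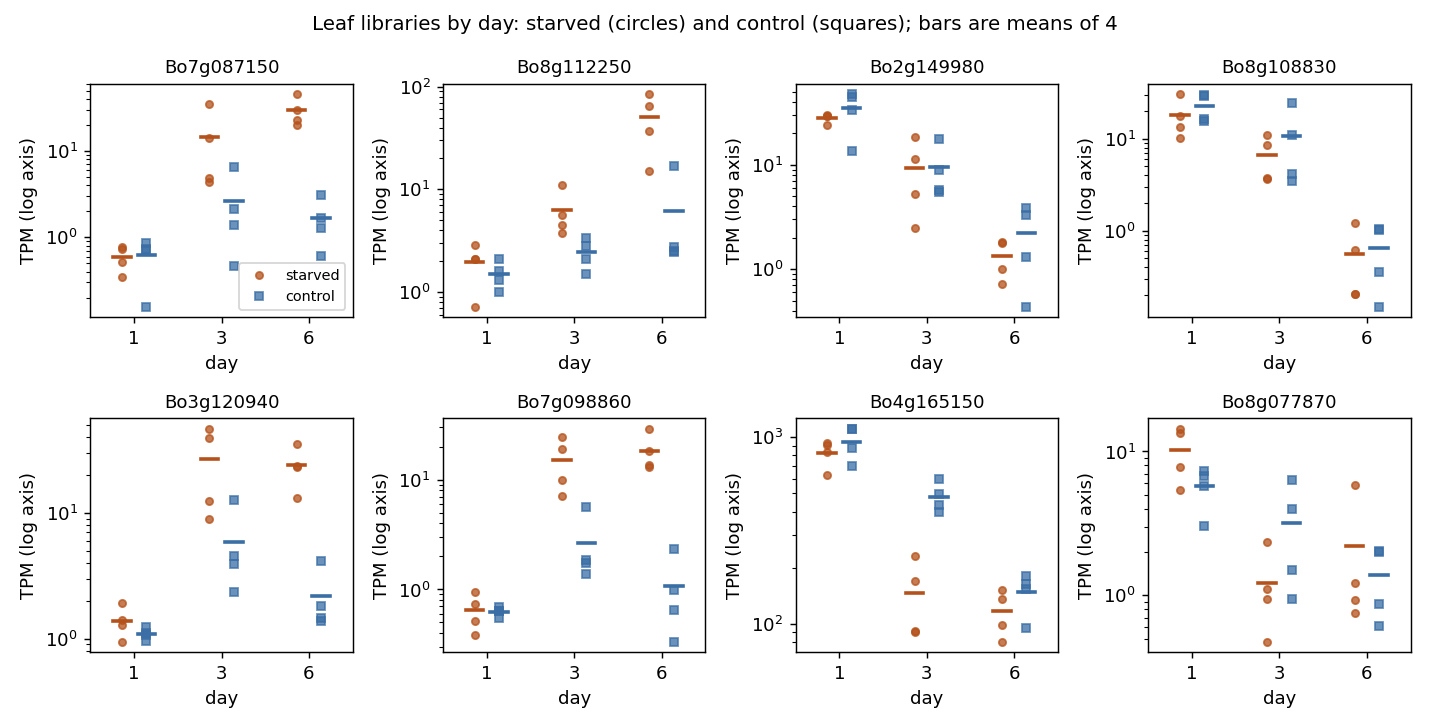
TPM (log axis) of 8 features in every leaf library on days 1, 3 and 6, starved as circles and control as squares, with bars for the means of 4 libraries. The upper row holds the largest changes between days 6 and 1 and the lower row those between days 3 and 1. The starved means of the rises stand above the control means on day 6. Starved day 6 values took part in choosing the upper row, which favours that order there. In control leaves the means of the falls fell with the days. On day 3 the starved mean was below the control mean for Bo4g165150 (146 against 480 TPM) and Bo8g077870 (1.22 against 3.19 TPM).

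Rises had lower levels than falls on day 1, whose libraries took part in choosing both. The median day 1 level was 3.64 TPM for the rises, 8.21 TPM for the falls and 5.90 TPM for all features tested, and 565 rises (20.9%) were under 1 TPM on day 1, against 3 falls (0.215%) and 6.18% of all. A feature under 1 TPM has little room to fall on this scale, so these shares follow in part from the calls themselves. Such a feature also reached the minimum for testing only with libraries of later days. Averaged over all 12 libraries, the median level was 6.35 TPM for rises, 6.08 TPM for falls and 6.51 TPM for all. The median coding length was 960 bases for rises, 786 for falls and 1056 for all. Without library d of day 1, in which short features stood high, the medians were 891 and 996 bases, with 1059 for all, and the order of rises and falls was the other way round. Calls were spread over the ID prefixes, which held 10.05 to 11.8% rises and 4.71 to 6.64% falls each. Of rises with a tested neighbour by ID number 16.2% had a rising neighbour, where 11.2% of the members of the 11970 pairs were rises, and the corresponding shares for falls were 7.03% and 5.71%. Neighbours can be near-identical copies that share reads, which the IDs do not show.

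Summed over the 2701 rises, TPM came to 41604 ± 4156 on day 1, 58692 ± 4102 on day 3 and 81064 ± 8840 on day 6 (SD, n = 4 each), out of 1000000 per library. That of the 1398 falls was 93950 ± 2153, 78752 ± 6078 and 58909 ± 2910. The direction between days 1 and 6 was set by the choice of features, and the day 3 sums lay between. In control leaves, whose libraries had no part in the choice, the sums over the same features were 40940 ± 2793, 53797 ± 2601 and 68708 ± 9603 for the rises and 96498 ± 5482, 79331 ± 1651 and 61367 ± 8480 for the falls. The 2 most abundant features did not pass the test. Bo4g137200 held 5.88, 5.29 and 5.66% of the TPM of starved leaves on days 1, 3 and 6, and Bo3g146480 held 2.14, 2.04 and 2.03%, with limma adjusted p-values of 0.838 and 0.614 between days 6 and 1.

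By day 3 fewer features had passed the test. Between days 3 and 1 limma called 234 of 24000 (0.975%), of which 198 rose (0.825%) and 36 fell (0.15%), and 3175 had an unadjusted p under 0.05. Bo3g120940 stood at 8.96, 39.3, 46.3 and 12.4 TPM on day 3, against 0.945, 1.41, 1.92 and 1.28 TPM on day 1 (log2 fold change 3.25, SE 0.44, limma adjusted p = 0.00725). It stayed there on day 6 (13.1 to 35.4 TPM), when control leaves had 1.39 to 4.14 TPM. Bo7g098860 reached 7.07, 18.9, 24.7 and 9.89 TPM on day 3, against 0.741, 0.383, 0.952 and 0.515 TPM on day 1 (log2 fold change 3.16, SE 0.34, limma adjusted p = 0.00260). Both had the same order of libraries on day 3, with c highest, then b, d and a, and in control leaves of day 3 library c was again the highest, at 12.7 and 5.69 TPM. Day 6 of Bo7g098860, at 13.0 to 29.1 TPM, overlapped with day 3, and its control leaves of day 6 had 0.334 to 2.36 TPM. The day 1 to day 6 change in starved minus control leaves was called for Bo3g120940 (2.78, SE 0.61, limma adjusted p = 0.0335) and Bo7g098860 (3.24, SE 0.49, limma adjusted p = 0.00217). By day 3 it was 1.74 and 2.12 and was not called (limma adjusted p = 0.930 each). Starved libraries of days 1 and 3 chose both features, which favours the starved side.

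Among the falls of the first 3 days was an abundant feature. Bo4g165150 had 169, 231, 90.2 and 91.5 TPM on day 3, against 909, 830, 930 and 629 TPM on day 1 (log2 fold change -2.59, SE 0.29, limma adjusted p = 0.00304). On day 6 it was at 80.1 to 152 TPM, and the difference from day 3 was -0.25 (SE 0.29, limma adjusted p = 0.798). In control leaves it was at 702 to 1109 TPM on day 1, at 396 to 594 TPM on day 3 and at 94.5 to 180 TPM on day 6. Starved and control leaves thus overlapped on days 1 and 6 but were apart on day 3, where every starved library was below every control library. The day 1 to day 3 change in starved minus control leaves was -1.62 (SE 0.38), which did not pass over all features (limma adjusted p = 0.930). Bo8g077870 was down to 1.12, 2.35, 0.939 and 0.477 TPM on day 3, against 5.38, 13.5, 7.80 and 14.32 TPM on day 1 (log2 fold change -2.32, SE 0.42, limma adjusted p = 0.0277). It rested on 3 to 106 reads per library, and its call was lost with no filter (limma adjusted p = 0.0628), on the recovered reads (0.0507) and without library b of day 1 (0.115), c of day 3 (0.0971) or d of day 3 (0.0718).

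The count for days 3 and 1 depended on single libraries. It was 56 without library a and 22 without library b of day 1, 405, 44, 34 and 89 without libraries a, b, c and d of day 3, and 132 and 110 without libraries a and b of day 6. After rescaling, which moved the median change of all features from 0.17 to 0.00 on the log2 scale, 187 features rose and 127 fell. Control leaves had 104 calls between these days (0.433%), 82 higher (0.342%) and 22 lower (0.0917%). There, 195 of the 198 rises and 36 of the 36 falls had the same direction of change, where 52.05% of all features were higher and 47.95% lower on day 3, with a median log2 change of 1.15 in starved and 0.67 in control leaves for the rises and of -1.04 and -0.63 for the falls. The control libraries had no part in choosing them, while the starved ones did.

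Between days 6 and 3 limma called 881 features (3.67%), 455 higher (1.9%) and 426 lower (1.77%) on day 6. This comparison shares the day 3 libraries with the one above. Bo5g004490 rose in this step, to 43.6, 26.1, 28.7 and 41.6 TPM on day 6, against 0.806, 4.104, 3.71 and 1.45 TPM on day 3 (log2 fold change 3.45, SE 0.50, limma adjusted p = 0.00465). On day 1 it was at 0.494 to 10.6 TPM, and its change between days 3 and 1 was -0.33 (SE 0.50, limma adjusted p = 0.748). Control leaves of day 6 held 2.19 to 15.4 TPM, below all 4 starved libraries. The day 1 to day 6 change in starved minus control leaves was 2.07 (SE 0.81) and was not called (limma adjusted p = 0.439). Bo3g080060 reached 31.1, 19.7, 10.8 and 61.8 TPM on day 6, against 2.45, 2.75, 2.52 and 0.931 TPM on day 3 (log2 fold change 3.11, SE 0.60, limma adjusted p = 0.0140). Its coding length is 201 bases, and the call was lost with a pseudocount of 0.1 TPM (limma adjusted p = 0.0904), on the recovered reads (0.0541) and without library a (0.0590) or d (0.0557) of day 6. In control leaves of day 6 it was at 0.913 to 16.3 TPM, which overlapped with the starved libraries. Its day 1 to day 6 change in starved minus control leaves was 1.45 (SE 0.93) and was not called (limma adjusted p = 0.886).

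The falls named for this step were features whose mean on day 3 was above those of days 1 and 6. Bo8g052860 had 0.666, 0.872, 1.49 and 1.77 TPM on day 6, against 1.81, 43.0, 15.8 and 13.1 TPM on day 3 (log2 fold change -2.60, SE 0.60, limma adjusted p = 0.0310), and 0 to 1.08 TPM on day 1. Library a of day 3 lay just above day 6 and library b far above it. Bo9g059480 had 0.616, 0.605, 0.589 and 0.766 TPM on day 6, against 0.976, 22.9, 25.4 and 3.98 TPM on day 3 (log2 fold change -2.43, SE 0.63, limma adjusted p = 0.0495). Control leaves had their highest mean on day 3 as well. Bo8g052860 averaged 1.40, 5.29 and 0.385 TPM there on days 1, 3 and 6, and Bo9g059480 1.24, 3.56 and 0.942 TPM. The control log2 change between days 6 and 3 was -2.02 for Bo8g052860 (limma adjusted p = 0.00927) and -1.03 for Bo9g059480 (limma adjusted p = 0.192). Both features are short (204 and 294 bases) and had at most 190 and 162 reads in a library. The call of Bo8g052860 was lost without any of libraries b, c and d of day 3 or a to d of day 6 (limma adjusted p = 0.0578 to 0.106), with no filter (0.0568), with a pseudocount of 0.1 TPM (0.0677) and on the recovered reads (0.114). That of Bo9g059480 was lost without any library but d of day 1 and a of day 3 (limma adjusted p = 0.0622 to 0.159), with no filter (0.0857) and on the recovered reads (0.151).

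The count for days 6 and 3 was 569 without library b and 2121 without library d of day 1, 510, 232 and 403 without libraries a, b and d of day 3, and 150, 570 and 234 without libraries a, c and d of day 6. Rescaling gave 961 rises and 694 falls. Control leaves had 707 calls (2.95%), 233 higher (0.971%) and 474 lower (1.98%). There, 417 of the 455 rises and 407 of the 426 falls had the same direction, where 63.3% of all features were higher and 36.7% lower on day 6. The median change was 1.05 in starved and 0.46 in control leaves for the rises, and -0.85 and -0.70 for the falls.

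Features called between days 6 and 1 were on average partway on day 3. The share of the log2 change present by day 3 had a median of 49.4% over the 2701 rises and 36.4% over the 1398 falls. Days 1 and 6 chose these features, and day 1 enters both parts of the share. A day 3 value between them is therefore in part built in. The median log2 change of all features tested, 0.17 by day 3 and 0.13 by day 6, was left in these shares. Taken library by library of day 3, the median for the rises was 33.0, 50.2, 67.1 and 47.3% in libraries a to d (49.4 ± 14.0, SD, n = 4), and for the falls 25.1, 17.8, 54.0 and 43.5% (35.1 ± 16.6). The median was higher for the rises than for the falls in 4 of the 4 libraries, by 3.84 to 32.3 percentage points, and the difference was not tested. All 4 were set against the same libraries of days 1 and 6, so they do not count as independent. Of the rises 2514 and of the falls 1243 had a day 3 mean between those of days 1 and 6, 128 rises and 20 falls were past the day 6 mean, and 59 and 135 had moved the other way. Control leaves, for features called in them, gave medians of 42.0% over 1897 rises (7.9% of features) and 43.1% over 1436 falls (5.98%). Without library d of day 1 and library a of day 3, both with the trend in coding length, the shares in starved leaves were 49.2% and 43.0%.

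**Figure D4:**
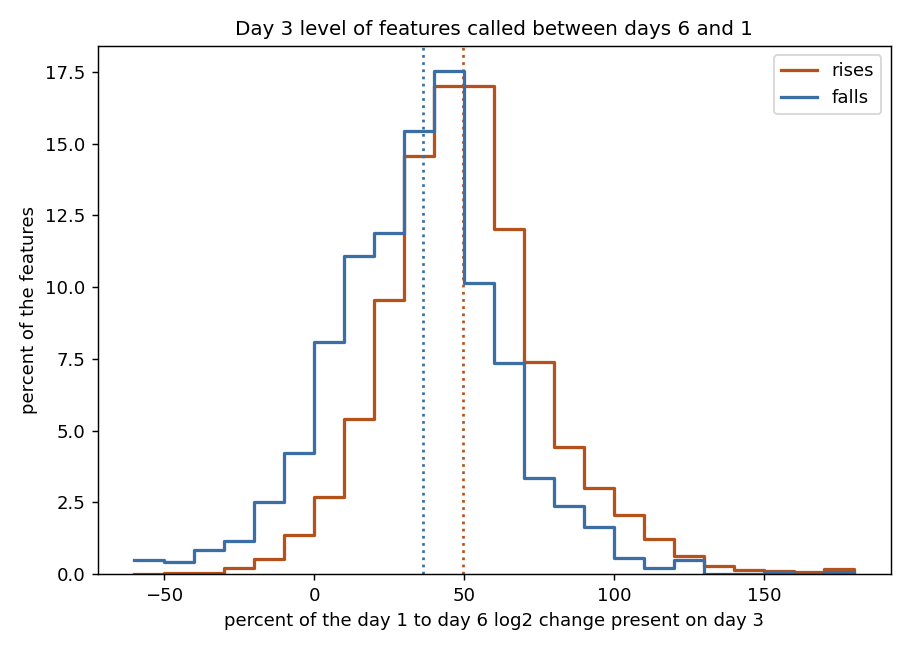
Distribution of the percent of the day 1 to day 6 log2 change that was present on day 3, for the 2701 rises and 1398 falls of starved leaves; values beyond the axis are in the end bins. Dotted lines mark the medians, 49.4% for rises and 36.4% for falls.

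Library c of day 3 was the farthest along among the 4. It was the highest of the 4 for 56.0% of the rises, where it was the highest for 33.0% of all features tested, and the lowest for 47.9% of the falls, against 14.41% of all. In control leaves of day 3, library c was the highest for 41.5% of the same rises, against 23.0% of all features, and the lowest for 26.2% of the falls, against 9.98% of all. Library a of starved day 3 was the lowest for 53.0% of the rises and for 59.2% of all features. Summed over the rises, TPM reached 64838 in library c and 56429 to 56892 in the other 3 libraries of day 3. The labels do not say whether libraries of the same letter share a plant, a tray or a day of handling.

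As a trend over the 3 days, the slope of log2(TPM + 1) per day passed limma's test for 3960 features (16.5%), 2564 upward (10.7%) and 1396 downward (5.82%). This fit rests on the same 12 libraries as the day comparisons. The count was 2529 without library a and 2635 without library d of day 6, and rescaling gave 2726 and 2623. The trend examples were chosen among features with no overlap between libraries at either step. Bo8g112250, described above, gained 0.80 per day (SE 0.09, limma adjusted p = 0.000108). Bo6g120950, of 195 bases, was at 1.58, 4.98, 4.23 and 2.24 TPM on day 1, then at 9.88, 14.43, 12.7 and 12.2 TPM on day 3, then at 53.6, 27.6, 86.0 and 99.5 TPM on day 6, a gain of 0.78 per day (SE 0.07, limma adjusted p = 5.97e-05). Its control leaves also climbed, averaging 8.44 ± 5.23, 13.4 ± 2.36 and 36.2 ± 16.3 TPM (SD, n = 4 each), and the difference between the changes from day 1 to day 6 was 1.91 (SE 0.54, limma adjusted p = 0.141).

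Downward, Bo2g149980 lost 0.73 per day (slope -0.73, SE 0.08, limma adjusted p = 9.24e-05). Bo6g069980 was at 10.6, 12.2, 17.3 and 9.89 TPM on day 1, then at 6.49, 6.52, 3.98 and 3.55 TPM on day 3, then at 0.573, 1.13, 0.823 and 1.23 TPM on day 6 (slope -0.56, SE 0.04, limma adjusted p = 2.57e-05). It averaged 12.5 ± 3.36, 5.14 ± 1.59 and 0.939 ± 0.2999 TPM in starved leaves and 12.3 ± 4.74, 5.72 ± 3.42 and 1.22 ± 0.310 TPM in control leaves (SD, n = 4 each). Starved and control leaves overlapped on every day.

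Counted without a test, 264 features (1.1%) had all 4 libraries of day 3 above those of day 1 and all 4 of day 6 above those of day 3, and 74 (0.308%) stepped down in the same way. In control leaves 159 (0.662%) stepped up and 118 (0.492%) stepped down, and 38 features stepped up and 30 stepped down in both treatments. Of the 264, 187 had all day 6 control libraries above all day 1 control libraries, which held for 11.7% of all features, and of the 74, 66 had them all below (7.76% of all). The median steps of the 264 were 0.57 from day 1 to day 3 and 0.66 from day 3 to day 6 on the log2 scale, and those of the 74 were -0.57 and -0.66.

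Few features passed the test for a peak on day 3. Against the mean of days 1 and 6, limma called 7 features higher on day 3 (0.0292%) and 0 lower, with 1669 at an unadjusted p under 0.05 and 6 called higher and 0 lower on the recovered reads. Rescaling gave 12 higher and 8 lower. Bo5g108620 was at 80.8, 63.3, 52.6 and 42.6 TPM on day 3, against 12.7 to 26.5 TPM on day 1 and 17.6 to 25.1 TPM on day 6 (difference 1.61, SE 0.20, limma adjusted p = 0.0130). In control leaves it averaged 31.5 ± 6.99 TPM on day 3, with 18.3 ± 6.89 TPM on day 1 and 18.6 ± 8.04 TPM on day 6 (SD, n = 4 each). Bo3g153810 was at 4.005, 9.81, 5.55 and 4.48 TPM on day 3, against 1.94 to 2.72 TPM on day 1 and 0.498 to 0.954 TPM on day 6 (difference 1.48, SE 0.19, limma adjusted p = 0.0130). Its control leaves held 1.01 to 2.719 TPM on day 1, 2.720 to 4.67 TPM on day 3 and 0.0873 to 0.858 TPM on day 6. Day 3 was thus the highest in control leaves too. The call of Bo5g108620 was lost without libraries b, c or d of day 3 (limma adjusted p = 0.102, 0.0615 and 0.0637), and that of Bo3g153810 without library b of day 1 (0.0510) or b, c or d of day 3 (0.0691, 0.0702 and 0.0668). The count of 7 became 4 without library b and 18 without library d of day 1, and 43, 0, 1 and 0 without libraries a, b, c and d of day 3. Counted without a test, 114 features (0.475%) had day 3 above all 8 other starved libraries and 17 (0.0708%) below them, against 201 (0.838%) and 32 (0.133%) in control leaves.

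Most of what changed over the days of starvation changed in the same direction in control leaves. Of the rises between days 6 and 1, 2545 of 2701 (94.2%) were also higher on day 6 in control leaves, where 61.7% of all features were higher. Of the falls 1358 of 1398 (97.1%) were lower there too, against 38.3% of all. Control leaves had 3333 calls (13.9%), 1897 higher (7.9% of all features) and 1436 lower (5.98%). Called the same way in both treatments were 1086 rises, 40.2% of those of starved and 57.2% of those of control leaves, and 861 falls, 61.6% and 59.96%. Called in opposite directions were 6 of the starved rises and 2 of the starved falls. Without library d of starved day 1, 2421 of 2581 rises and 2394 of 2582 falls had the same direction in control leaves.

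The rises of starved leaves had a median log2 change of 0.89 there and of 0.55 in control leaves, and the falls -0.79 and -0.68. The change was larger in starved leaves for 82.1% of these rises and 62.9% of these falls. Since these features were called in starved leaves, the comparison favours the starved side. Read the other way, the 1897 rises called in control leaves had a median change of 0.66 in starved and 0.79 in control leaves, and 33.9% of them were larger in starved leaves. The 1436 falls had -0.65 and -0.79, and 26.5% were larger in starved leaves. Across all 24000 features, which are not independent replicates, the changes from day 1 to day 6 in starved and control leaves correlated with Pearson r = 0.698 and Spearman rho = 0.725, as a description. Without starved library d and control library b of day 1, r was 0.677 and rho 0.692. For the changes from day 1 to day 3, r was 0.517 and rho 0.475.

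**Figure D5:**
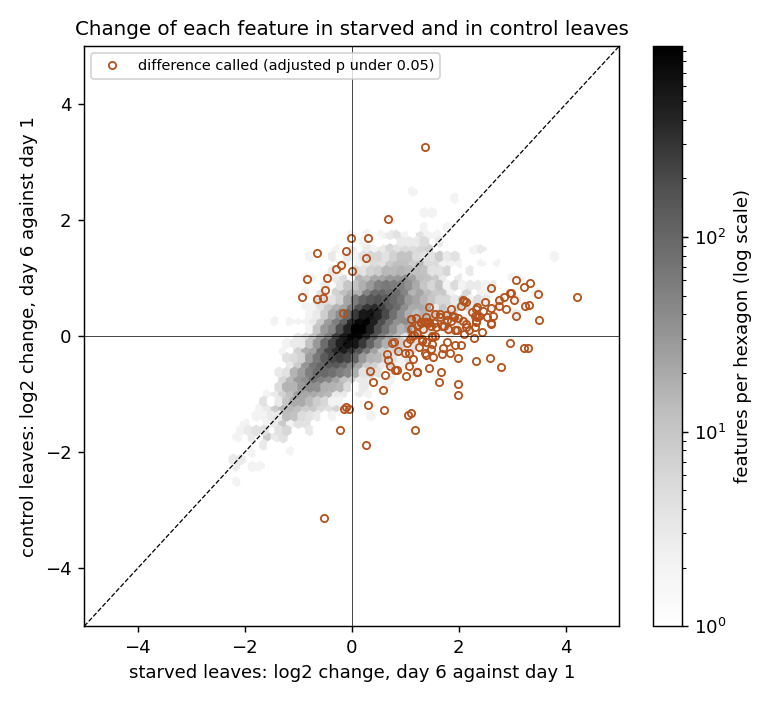
Log2 change of each of 24000 features between days 6 and 1, starved leaves on the horizontal and control leaves on the vertical axis, with darker hexagons for more features and a dashed line for equal change. Circles mark features whose change differed between treatments (limma, adjusted p under 0.05); most lie to the right, with a median starved change of 1.68 and a control change of 0.11 for the 142 of positive difference.

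The difference between the starved and control changes was itself called for 159 of 24961 features (0.637%), 142 of them more positive in starved leaves (0.569%) and 17 more negative (0.0681%). The 142 had a median starved change of 1.68 and a median control change of 0.11, and 130 of them were rises between days 6 and 1 in starved leaves. Their starved minus control level had a median of -0.03 on day 1, 0.50 on day 3 and 1.68 on day 6 on the log2 scale, with starved above control for 139 of 142 on day 3, where 64.09% of all 24961 were above (median 0.06). The values of days 1 and 6 chose these features, and the day 3 libraries shared the estimate of spread but not the contrast. The 17 followed another course, in that control leaves rose for all 17 (median 1.16) and starved leaves had a median change of -0.21. On day 3 starved leaves were below control leaves for 15 of the 17 (median -0.24), as for 35.9% of all, and on day 6 the median was -1.13. By day 3 the difference of changes from day 1 was called for 0 features by limma and 0 on the recovered reads, with 695 at an unadjusted p under 0.05.

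Of the largest differences, counting only features that averaged 1 TPM or more over the 24 leaf libraries, that of Bo7g087150 was described above (difference 3.54, SE 0.68, limma adjusted p = 0.0149). Its difference was no longer called with a pseudocount of 0.1 TPM (limma adjusted p = 0.0546), on the recovered reads (0.265) or without library a of starved day 6 (0.0558). Bo7g114390 stood at 33.9, 9.48, 11.4 and 21.3 TPM on day 6 of starvation, against 0.590, 0.216, 0.861 and 0.633 TPM in control leaves. On day 1 starved leaves held 0.374 to 1.62 TPM and control leaves 0.523 to 0.933 TPM (difference of changes 3.51, SE 0.53, limma adjusted p = 0.00217). On day 3 starved leaves were at 3.33, 6.52, 15.6 and 3.58 TPM and control leaves at 1.40, 1.15, 3.74 and 1.35 TPM, with library c again the highest in each.

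The most negative difference was that of Bo5g126170 (-2.07, limma adjusted p = 0.00155), named after its values were seen, whose mean was 0.808 TPM. Bo8g045830 rose in both treatments and less under starvation. On day 6 it was at 3.58, 2.31, 5.68 and 5.37 TPM in starved and at 16.9, 19.8, 8.97 and 13.4 TPM in control leaves, and on day 1 at 0.972 ± 0.320 TPM in starved and 0.602 ± 0.282 TPM in control leaves (difference of changes -1.90, SE 0.36, limma adjusted p = 0.0136). All starved libraries of day 6 were below all control libraries. The day 6 values of both treatments took part in choosing this feature, so that order follows in part from the choice. The call was lost with a pseudocount of 0.1 TPM (limma adjusted p = 0.0502), on the recovered reads (0.104) and without library a of starved day 6 (0.0503). Bo1g115950, of 192 bases, moved in opposite directions. It was at 71.2, 98.9, 73.3 and 146 TPM in starved and at 327, 341, 217 and 242 TPM in control leaves on day 6, with 171 ± 35.1 TPM and 140 ± 25.04 TPM on day 1 (SD, n = 4 each; difference of changes -1.83, SE 0.33, limma adjusted p = 0.00714). On day 3 the 2 treatments overlapped, at 127 to 259 TPM in starved and 149 to 216 TPM in control leaves.

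The count of 159 differences rested on single libraries of either treatment. Among starved libraries it was 100, 89 and 98 without a, b and d of day 1, and 43 and 65 without a and d of day 6. Among control libraries it was 82 and 88 without c and d of day 1, and 332, 71 and 73 without a, b and d of day 6.

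Only 2 of 24000 features had 0 reads in all starved libraries of day 1 and at least 1 TPM in all of day 6. The reverse held for 0 features, and the same counts in control leaves were 0 and 0. The 2 features are named after their values were seen, and both met the minimum for testing only through day 6. Bo7g117990 had 2.58, 1.81, 1.06 and 4.88 TPM on day 6, from 21, 15, 9 and 40 reads, and 0.127 to 0.778 TPM on day 3. Bo7g108050 had 2.66, 1.36, 2.17 and 1.67 TPM on day 6, from 27, 14, 23 and 17 reads, and 1 read in 1 library on day 3. A count of 0 on day 1 allows up to 3 reads per library, or 0.323 to 0.373 TPM for Bo7g117990 and 0.260 to 0.2998 TPM for Bo7g108050, for counting error only. In control leaves of day 6 they were at 0 to 0.617 TPM and 0.0975 to 0.562 TPM, below every starved library of that day. They were chosen for their day 6 level in starved leaves, so this order follows in part from the choice.

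Measures of whole libraries overlapped between the days. The share of the 10 most abundant features averaged 16.4 ± 1.14% on day 6 against 17.3 ± 3.00% on day 1, and the number of Bo features at 1 TPM or more averaged 22946 ± 463 against 22159 ± 1718 (SD, n = 4 each). Over 9 exact two-sided permutation tests of such measures between days, the smallest possible p is 0.0286, which alone would give an adjusted p of 0.257, so that a single measure could not have passed. The adjusted p-values were 0.814 to 1.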

How the data were processed

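Per the labels' protocols, libraries of broccoli leaf RNA were read on a DNBseq instrument. The submitters' processing notes list STAR 2.7.10a, cutadapt 4.1, FastQC 0.11.9 and DESeq2 without saying what each was used for. The authors deposited 1 table of TPM per feature and library. Genome build and annotation: not given in the sources used here. Whole reads and coding lengths were recovered as the smallest whole solution for each feature (44911 of 44911 features, largest deviation 0.000976 reads, tolerance 0.01), which gave 18350942 to 20104415 reads per starved leaf library. No pair of replicates agreed within sampling noise. TPM is relative to the rest of a library. Tests used limma 3.58.1 with R 4.3.3 (lmFit, eBayes with trend) on log2(TPM + 1), a scale that understates changes of low features, over the 12 starved leaf libraries (24 for differences from control). Features needed 1 TPM in 4 libraries, and a call is an adjusted p (Benjamini-Hochberg) under 0.05. Control values come from a fit of the 12 control leaf libraries over the same features. In simulated data for day 6 against day 1 (23602 features), calls were made for 66% of 100 features with a fold of 2, for 96% of 100 with a fold of 4, and for 0.0256% of the others. The changed features averaged at least 100 reads, and the largest spreads between libraries were capped. Libraries were simulated independently, with no trend in coding length. These rates therefore do not extend to features of few reads or to libraries with the length trend. Named features are, per comparison, up to 2 rises and 2 falls of largest change among called features of at least 1 TPM on average whose libraries did not overlap (overlap allowed for differences from control), and the 2 most abundant. The members, the rule and the lists were chosen with earlier results of these data known. Alternatives were other filters, a pseudocount of 0.1, rescaling, ENSRNA features kept, array weights, a replicate block, voom on recovered reads, removal of the coding length trend, a minimum fold change, other libraries in the fit, day as its order, and each library left out. Left out after seeing the data were libraries with a coding length rho under -0.45, and library d of day 1 together with rescaling. Python 3.11.15, numpy 2.4.6, pandas 2.3.3 and scipy 1.17.1 were used for the rest.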

Additional observations from a re-analysis of the deposited data

Results flagged for a closer look

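Among 84 groups of 4 libraries examined, 7 had a highest or lowest library whose gap to the others exceeded Dixon's limit for 4 values, where chance flags about 5% of groups. For Bo2g149980 library c of starved day 1 was the lowest, at 24.2 TPM. Bo8g077870 had library c of starved day 6 at 5.89 TPM, above 0.756 to 1.23 TPM in the others. For Bo3g080060 library d of starved day 3 was the lowest, at 0.931 TPM, and for Bo9g059480 library d of starved day 6 was the highest, at 0.766 TPM. The summed TPM of the rises between days 6 and 1 was highest in library c of starved day 3, at 64838. The share of reads on ENSRNA features was highest in library d of starved day 1, at 0.126%, and the coding length rho was lowest in library a of starved day 3, at -0.50.

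The change from day 1 to day 6 differed between starved and control leaves in limma's test for the 4 features named for it, by 3.54 for Bo7g087150, 3.51 for Bo7g114390, -1.90 for Bo8g045830 and -1.83 for Bo1g115950 on the log2 scale. Outside the features tested, the ENSRNA features held 0.0593% of reads on average in starved leaves of day 6 (0.0346 to 0.0840%), above the 0.0154 to 0.0206% of control leaves of that day. The means were 0.0596% in starved and 0.0413% in control leaves on day 1, and 0.0318% in starved and 0.0516% in control leaves on day 3.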

How the results depend on the processing

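None of the 584 settings of the named features reversed a direction (0), 533 kept the call and 51 lost it, and 13 of the 22 named results kept it in every setting that gave a value. Except for the differences from control, these results were chosen with no overlap between libraries. Leaving out a library or changing the filter or pseudocount therefore could not reverse their direction. Of 201 settings of the counts, 120 stayed within 1.5 times. For day 6 against day 1 (4099 calls) the others were 2434 with a minimum of 5 TPM, 7144 with array weights, 6955 with the coding length trend removed, 1484 with a log2 fold change of at least 1 and 6289 without the libraries of coding length rho under -0.45 (this setting, and that without library d of day 1 and rescaled, were chosen after seeing the data). For day 3 against day 1 (234) they were 55 with no filter, 1377 with array weights, 605 without the length trend, 149 at a log2 fold change of 1, 580 with all 24 leaf libraries, 24 with only the 8 libraries of the 2 days, 646 without the low rho libraries and 422 without library d of day 1 and rescaled. For day 6 against day 3 (881) they were 505 with 5 TPM, 1655 rescaled, 4640 with array weights, 2762 without the length trend, 373 at a log2 fold change of 1, 1391 with 24 libraries, 1328 with 8, 3346 without the low rho libraries and 2781 without library d of day 1 and rescaled. For the trend (3960) they were 2341, 7461, 6761 and 1432 under 5 TPM, array weights, length trend removed and a fitted change of at least 1, and 6064 without library d of day 1 and rescaled. For day 3 against days 1 and 6 (7) they were 3 with 5 TPM, 20 rescaled, 390 with array weights, 46 without the length trend, 84 with 24 libraries, 143 without the low rho libraries and 42 without library d of day 1 and rescaled. For the difference from control by day 6 (159) they were 82 with 5 TPM, 82 with a pseudocount of 0.1, 256 rescaled, 868 with array weights, 74 with voom and 295 without the length trend, and by day 3 (0) 5 with array weights. The cause of these moves was not tested, beyond the fewer features or libraries that some settings leave.

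Leaving out each library in turn gave 2603 to 5163 calls for day 6 against day 1, 22 to 405 for day 3 against day 1, 150 to 2121 for day 6 against day 3, 2529 to 5310 for the trend, 0 to 43 for the day 3 peak and 43 to 332 for the difference by day 6. The shares reached by day 3 ranged from 42.6 to 54.9% for rises and from 30.29 to 43.0% for falls over all settings, within 1 SD of the libraries of day 3.

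Replicate letters were not taken as pairs. Between days of starved leaves, the deviations of same-letter libraries correlated at -0.65 to 0.33, and in 2 of these 12 correlations the same letter gave the highest value. Between starved and control leaves of one day they were -0.46 to 0.39 on day 1, 0.22 to 0.70 on day 3 and -0.23 to 0.40 on day 6, so that all 4 exceeded the limit of 0.1 on day 3 only, and no test compared the treatments on day 3 alone. With the letter as a replicate block the counts were 2981 for day 6 against day 1, 13 for day 3 against day 1, 346 for day 6 against day 3, 2991 for the trend, 0 for the day 3 peak and 132 for the difference by day 6. The block ended 7 of the named calls (limma adjusted p = 0.0516 to 0.141), among them that of Bo3g120940 between days 3 and 1 (0.0573), which no other setting ended. The depth of each library limits features of few reads, and the 4 libraries per day limit the rest.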
